A study of Mus musculus with 230 samples.

Results

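Tnfsf10 encodes TRAIL, a death ligand of the tumour necrosis factor (TNF) superfamily. It was 1 of the 43346 gene identifiers in a table of read counts from mouse brain, and it was found by matching the Ensembl identifier ENSMUSG00000039304 to its symbol. The gene was chosen by its counts in these libraries, in which earlier results had it higher after cocaine at 24 h of withdrawal, so that difference is described here without a test. Everything outside that comparison, namely the level in each brain region, the differences at 30 d and the relation to interferon-induced genes among the other mice, was tested. That relation, with Gbp4 as its example, was itself picked with earlier results of these data known. Its p-values are therefore not independent of that choice.

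All mice were male C57BL/6J, had learned to self-administer cocaine or saline, and were then withdrawn. The group C24 (8 mice, cocaine) and the group S24 (8 mice, saline) were killed after 24 h of withdrawal with no later injection. The other groups were killed 1 h after an injection given at 30 d of withdrawal. Their first letter stands for the self-administered solution and their second for the injection. They were CC (7 mice, cocaine then cocaine), CS (6 mice, cocaine then saline), SC (8 mice, saline then cocaine) and SS (8 mice, saline then saline). Tissue was taken from the midbrain (VTA, ventral tegmental area), dorsal striatum (CPu), ventral striatum (NAc, nucleus accumbens), prefrontal cortex (PFC), amygdala (BLA, its basolateral part) and ventral hippocampus (vHipp), with 4 to 6 libraries per mouse, 230 in all. The ages of the mice are not given in the sources used here. Mice are named by their group and the number in the library titles, which was read as the animal.

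TRAIL is made as a membrane protein or shed, and on binding its death receptor it assembles a complex of the adaptor FADD and caspase-8 that can start apoptosis. Decoy receptors bind the ligand without passing on a death signal. Type I and type II interferons are known to raise its transcription in immune cells and endothelium. In the brain it is best known from microglia, invading T cells and vessels in inflammation and ischaemia.

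Library totals ran from 11866570 to 42135683 reads. Tnfsf10 had 17 reads in the library with the fewest (95% Poisson interval 9.90 to 27.2), 64 in the median library (49.3 to 81.7) and 252 in the library with the most (222 to 285), and these intervals cover counting error only. Levels are given as CPM, counts scaled to the same library size, with TMM factors. Labels of the CPu, NAc and VTA fitted their markers, and those of the PFC, BLA and vHipp were not checked in this way. Choroid plexus and ependyma markers were uneven in the vHipp, at 1721 ± 5199 CPM (SD, n = 39). Drd1, a dopamine receptor, had 324 CPM or more in every CPu library, 158 CPM or more in every NAc library and at most 124 CPM elsewhere. Slc6a3, the dopamine transporter, had 779 CPM or more in every VTA library, and its highest value elsewhere was 159 CPM, in the vHipp library of mouse S24_191. That library and the NAc library of mouse SC_083 (61.9 CPM) carried midbrain transcripts, and the comparisons over and between the regions were computed also without them.

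On the mm10 build Tnfsf10 lies on chromosome 3 from 27317028 to 27342427, on the plus strand, with no gene overlapping it. The nearest gene is the pseudogene Gm43345 at a distance of 8354 bp, and Ghsr starts 28924 bp downstream. The upstream sequence is shown because interferon-induced genes were among the genes most like it across mice, together with those of 3 guanylate-binding protein genes and of Sp100. Capitals mark matches to TTTCNNTTT or, on the other strand, AAANNGAAA, a short core of the elements bound by interferon regulatory factors. The stretches are RefSeq promoter sequences on GRCm38.p6, plus strand, and end at the base before the first exon of RefSeq or GENCODE M21, whichever starts first, or at the end of the match that reaches past it.

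Tnfsf10 (chr3:27316833-27317032, +): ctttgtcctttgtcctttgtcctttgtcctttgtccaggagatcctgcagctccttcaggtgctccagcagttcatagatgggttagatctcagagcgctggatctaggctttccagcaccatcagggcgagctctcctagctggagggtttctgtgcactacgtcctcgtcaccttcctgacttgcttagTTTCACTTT
Gbp3 (chr3:142559956-142560025, +): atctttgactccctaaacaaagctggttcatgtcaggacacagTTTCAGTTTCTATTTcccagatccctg
Gbp7 (chr3:142530266-142530335, +): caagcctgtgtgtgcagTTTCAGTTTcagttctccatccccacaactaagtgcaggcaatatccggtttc
Gbp2 (chr3:142620543-142620612, +): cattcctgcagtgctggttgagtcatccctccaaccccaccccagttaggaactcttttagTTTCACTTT
Sp100 (chr1:85649918-85649987, +): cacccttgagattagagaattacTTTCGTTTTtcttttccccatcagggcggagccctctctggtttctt

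In Tnfsf10 the match TTTCACTTT began 53 bases before the RefSeq start, and Gbp2 held the same 9 bases beginning 59 bases before its own. The GENCODE model of Gbp2 starts 61 bases before that of RefSeq, so this match lies inside its first exon. The Tnfsf10 match reaches past the GENCODE start. A second promoter of Gbp3 held no match. A further Tnfsf10 match on the other strand, AAAAAGAAA, began 31 bases before the RefSeq start, inside the first exon of the GENCODE model, which starts 49 bases earlier. Of 32851 promoters in the table, 9.37% held TTTCNNTTT within 250 bases upstream. The motif TTCNNNGAA of STAT factors (7.02% of promoters, both strands) was found in the Gbp7 window of 250 bases and in none of those of Tnfsf10, Gbp2, Gbp3 and Sp100. Of the 10 genes most like Tnfsf10 across mice 4 had a promoter in the table, and 2 of these, Gbp3 and Sp100, held TTTCNNTTT. Of the 25 most like 15 had one, and 6 of these held it. Gbp3, Gbp7 and Sp100, shown with Tnfsf10, are among those that do. Gbp2, also shown, had rank 27 and lies outside this set. A longer form, with a further C at the 3′ end (2.98% of promoters), was found in the windows of Gbp2, Gbp3 and Gbp7 and in neither that of Tnfsf10 nor that of Sp100. A match is a description of letters, and no binding was measured.

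Tnfsf10 was expressed at a low level in every region, and at its highest in the VTA and CPu. With the 6 conditions weighted equally, mean levels were 3.86 CPM in the VTA, 3.53 CPM in the CPu, 3.08 CPM in the vHipp, 2.71 CPM in the PFC, 2.61 CPM in the NAc and 2.57 CPM in the BLA. Over all libraries the VTA averaged 3.85 ± 1.46 CPM (SD, n = 31) and the BLA 2.54 ± 1.13 CPM (SD, n = 38), so the ranges of the regions overlapped widely. Within mice the order was more regular: in 30 of the 31 mice with a VTA library that library exceeded the mean of the same mouse's other regions, as did the CPu library in 35 of 42 mice. The NAc library did so in 7 of 39 mice and the BLA library in 6 of 38.

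**Figure D1:**
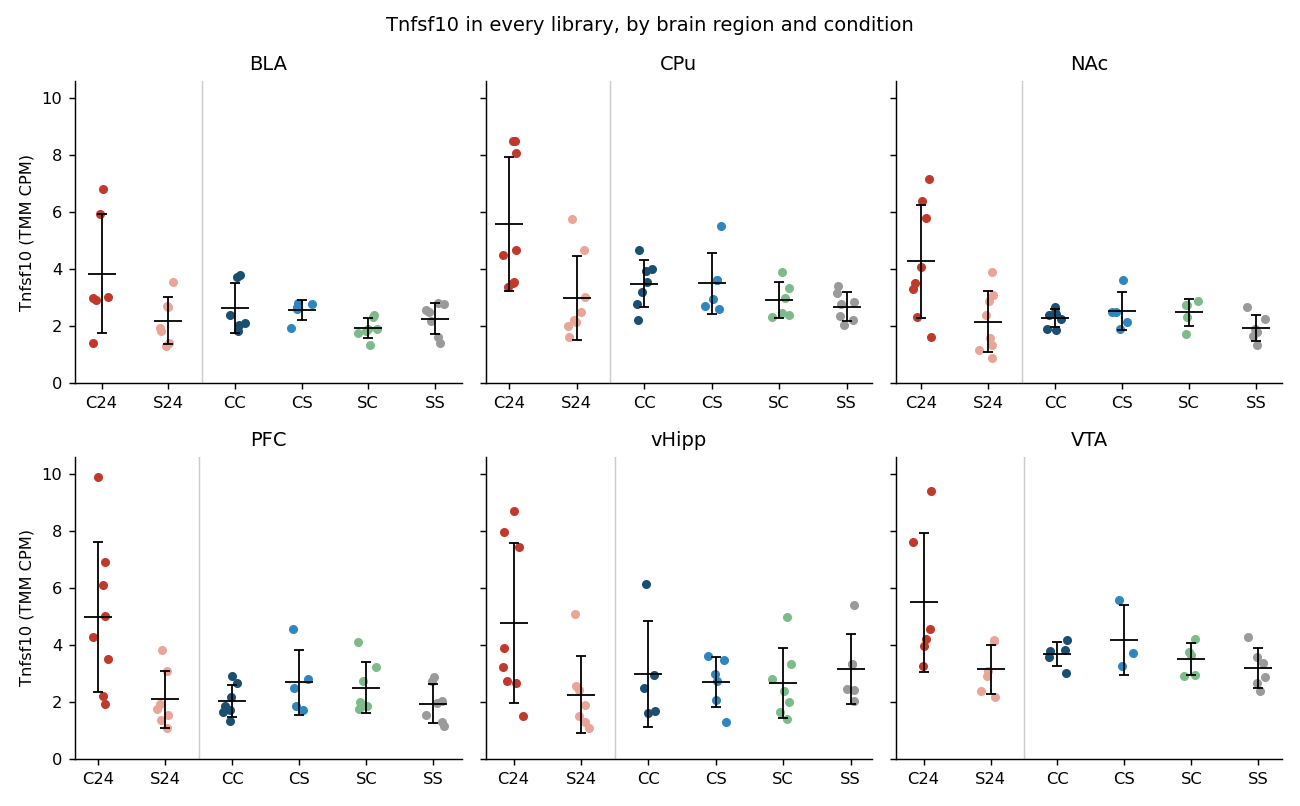
Tnfsf10 in each of the 230 libraries, in TMM-scaled CPM (y axis from 0), by condition within each of the 6 regions; points are libraries, bars the mean and whiskers the SD. The highest library of each region is a C24 library, from 6.83 CPM in the BLA to 9.89 CPM in the PFC, and VTA and CPu libraries sit on average higher than those of the other regions.

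In edgeR's quasi-likelihood test over all libraries, Tnfsf10 was higher in the VTA than in the mean of the other 5 regions, with a log2 fold change of 0.45 and an SE of 0.10 (adjusted p = 2.64e-05), and in the CPu by 0.27 ± 0.09 (adjusted p = 0.00513). It was lower in the NAc by a log2 fold change of -0.26 ± 0.10 (adjusted p = 0.0136), in the BLA by -0.26 ± 0.10 (adjusted p = 0.0174) and in the PFC by -0.24 ± 0.10 (adjusted p = 0.0224). The vHipp value of 0.04 ± 0.10 did not pass (adjusted p = 0.729, edgeR) and was -0.01 without the 2 libraries with midbrain transcripts. Such differences were common: 82.6% of the 18927 genes tested passed for the VTA, 78.9% for the CPu, 71.5% for the vHipp, 73.5% for the NAc, 65.8% for the BLA and 69.5% for the PFC. A pass is thus near the background. Neighbours in the order did not pass the edgeR test: CPu against VTA gave -0.15 ± 0.13 (adjusted p = 0.263), CPu against vHipp 0.19 ± 0.12 (adjusted p = 0.139) and PFC against vHipp -0.23 ± 0.12 (adjusted p = 0.0922). Nor did BLA against PFC pass, at -0.02 ± 0.13 (adjusted p = 0.917, edgeR), or BLA against NAc, at 0.00 ± 0.12 (adjusted p = 0.992). The libraries of 1 mouse share an animal, and with the mouse as a block in the same edgeR test the first 3 of these did pass, at log2 fold changes of -0.18 (adjusted p = 0.0348), 0.23 (adjusted p = 0.00484) and -0.18 (adjusted p = 0.0358). Of all genes 84.5%, 79.6% and 63.9% passed with the block and 83.9%, 79% and 63.5% without it, and 64.1% and 64.9% for BLA against PFC and BLA against NAc. Pairs farther apart in the order passed in edgeR where they set the VTA or the CPu against a region other than each other or the vHipp: BLA against VTA -0.59, NAc against VTA -0.59, PFC against VTA -0.57, BLA against CPu -0.44, CPu against NAc 0.44 and CPu against PFC 0.42 (highest adjusted p = 0.00100), beside 79.7%, 82.5%, 79.6%, 76.2%, 58.1% and 76% of all genes. So did vHipp against VTA, at -0.34 (adjusted p = 0.0129, edgeR; 79.6% of all genes). BLA against vHipp (-0.25, adjusted p = 0.0751; 64%), NAc against vHipp (-0.25, adjusted p = 0.0614; 75.8%) and NAc against PFC (-0.02, adjusted p = 0.897; 73.5%) did not pass in edgeR without the block. With it, BLA against vHipp passed at -0.24 ± 0.08 (adjusted p = 0.00752; 64.6% of all genes) and NAc against vHipp at -0.21 ± 0.08 (adjusted p = 0.0113; 76.4%), while BLA against NAc, BLA against PFC and NAc against PFC did not pass in either fit (adjusted p from 0.556 to 0.822 with the block, edgeR). Without the C24 libraries the VTA and CPu stayed the highest regions, at 3.46 ± 0.76 CPM (SD, n = 25) and 3.11 ± 0.98 CPM (SD, n = 34), and the PFC against vHipp difference passed at -0.29 (adjusted p = 0.0331, edgeR).

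Markers of vessels and of oligodendrocytes were highest in the same 2 regions as Tnfsf10. The 12 markers of endothelial cells and pericytes summed to 484 ± 65.7 CPM in the CPu (SD, n = 42) and to 479 ± 53.8 CPM in the VTA (SD, n = 31), against 443 ± 57.4 CPM in the vHipp (n = 39) and from 388 to 396 CPM in the NAc, PFC and BLA. The 8 oligodendrocyte markers summed to 16304 ± 1817 CPM in the VTA and to 6832 ± 1021 CPM in the CPu, against 5497 ± 912 CPM in the NAc, 5462 CPM in the PFC, 4282 CPM in the BLA and 2183 CPM in the vHipp, the lowest of the 6 regions and the third in Tnfsf10. The 12 microglia markers did not follow the same order, with 541 ± 43.4 CPM in the CPu but 398 ± 73.6 CPM in the VTA, which was the lowest of the 6 regions. None of the other cell-type lists had the VTA and CPu as its 2 highest regions. Leptomeningeal fibroblast markers were highest in the VTA (858 CPM) and lowest in the CPu (200 CPM). Astrocyte markers were lowest in the VTA (3578 CPM). In bulk tissue, more cells of a type and more RNA per cell cannot be told apart, and the part of these markers in the Tnfsf10 order was not tested.

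The receptors of TRAIL differed between the regions, as most genes did: 82.6% of all genes passed for the VTA and 78.9% for the CPu against the other 5 regions, so that a pass here is near the background. Per kb of exon, where levels of genes can be compared, Tnfsf10 averaged 0.583 CPM over all libraries, Tnfrsf22 0.389, Tnfrsf23 0.386, Tnfrsf11b 0.305, Tnfrsf10b 0.160 and Tnfrsf26 0.0241 CPM. Tnfrsf10b, the death receptor of the mouse, had 5 to 72 reads per library and was higher in the CPu than in the other 5 regions (log2 fold change 0.28 ± 0.08, adjusted p = 0.00112, edgeR) and lower in the VTA (-0.30 ± 0.10, adjusted p = 0.00373). The decoys Tnfrsf22 and Tnfrsf23 had the opposite pattern, higher in the VTA by 0.57 ± 0.06 and 0.52 ± 0.07 and lower in the CPu by -0.68 ± 0.05 and -1.04 ± 0.07. Tnfrsf11b, the soluble receptor osteoprotegerin, had 2.05 CPM in the VTA and 0.427 CPM in the CPu, and its difference from the other regions was 1.64 ± 0.10 in the VTA and -1.03 ± 0.12 in the CPu. All 6 of these decoy and osteoprotegerin differences passed (edgeR, highest adjusted p = 3.07e-12 among the 3 in the VTA and 1.03e-14 among the 3 in the CPu). Tnfrsf22, Tnfrsf23 and Tnfrsf26 are related genes whose reads could have been split or lost in counting, and Tnfrsf26 did not pass the filter on low counts, with no read in 51 libraries.

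**Figure D2:**
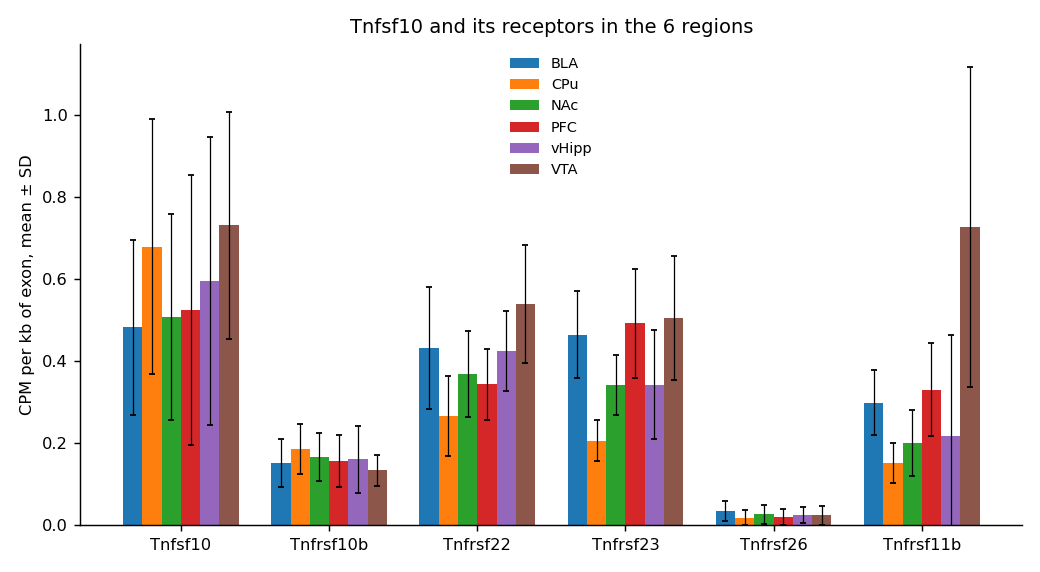
Mean level of Tnfsf10 and of the 5 members of the receptor list in the 6 regions, in CPM per kb of exon (y axis from 0); bars are means over the libraries of a region and whiskers are SDs, cut off at 0. Tnfrsf10b lies between 0.133 and 0.186 CPM per kb, while Tnfrsf11b is highest in the VTA.

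Per kb of exon, 3 of the other TNF superfamily ligands had higher mean levels over all libraries than Tnfsf10. Of the 17 on the list 10 passed the filter, and Tnfsf12 (TWEAK, 2.87 CPM per kb), Eda (ectodysplasin, 1.01) and Tnfsf9 (a T-cell co-stimulator, 0.620) exceeded Tnfsf10. Tnfsf9 did so only in the CPu (1.05 against 0.680 CPM per kb) and NAc (0.962 against 0.508). It was below Tnfsf10 in the BLA, PFC, vHipp and VTA. Fasl, the other well-known death ligand, had 0.178 CPM with 16 libraries at 0, and Tnf 0.0383 CPM with 97 libraries at 0. In the VTA 5 of the 10 were higher and 1 lower than in the other regions, beside the 82.6% of all genes that differed there. Tnfsf13b (BAFF, a B-cell survival factor) stood at 2.07 CPM in the VTA and at no more than 0.533 CPM elsewhere. Tnfsf15 stood at 0.296 CPM in the VTA and at no more than 0.0242 CPM elsewhere, with 167 libraries at 0. At these levels it could pass the filter only through the VTA libraries. Its place among the 10 and its VTA difference are thus not independent, and the difference is no support.

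At 24 h of withdrawal Tnfsf10 was higher in C24 than in S24 in all 6 regions, by a log2 fold change of 0.94 ± 0.21 (SE) over the regions; this is the difference for which the gene was chosen and it is given without a test. The value of a mouse, adjusted for which regions it had, averaged 4.83 ± 2.32 CPM in C24 mice, against 2.41 ± 0.93 CPM in S24 mice (SD, n = 8 each). C24 mice ran from 2.17 CPM over a median of 3.69 CPM to 7.91 CPM, and S24 mice from 1.40 CPM over 2.04 CPM to 4.04 CPM. The C24 group fell apart into 3 mice at 7.14, 7.62 and 7.91 CPM (mice C24_203, C24_194 and C24_223) and 5 mice between 2.17 and 4.04 CPM. Of these 5, mouse C24_183 was level with the highest S24 mouse (4.044 against 4.039 CPM) and the other 4 lay inside the S24 range. Those 3 were the only C24 mice above the highest of the 37 mice of the other groups, mouse CS_091 at 4.15 CPM.

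The same 3 mice had the highest C24 values in the PFC, vHipp, NAc and CPu, and those of them with a library in the BLA and VTA were highest there. In the PFC C24 libraries ran from 1.92 over 4.64 to 9.89 CPM, and S24 libraries from 1.10 over 1.76 to 3.83 CPM (lowest, median and highest), and 5 of 8 C24 libraries lay above the highest S24 library. The log2 fold change was 1.26 ± 0.30. In the vHipp the C24 libraries ran from 1.51 over 3.57 to 8.71 CPM and the S24 libraries from 1.09 over 1.87 to 5.07 CPM, with 3 of 8 above and a log2 fold change of 1.09 ± 0.36. In the NAc they ran from 1.63 over 3.80 to 7.15 CPM in C24 and from 0.887 over 2.0 to 3.92 CPM in S24, with 4 of 8 above and a log2 fold change of 1.01 ± 0.25. Groups therefore overlapped in each of these regions, and the C24 libraries above the S24 range always included mice C24_194, C24_203 and C24_223.

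In the CPu the C24 libraries ran from 3.39 over 4.59 to 8.51 CPM and the S24 libraries from 1.62 over 2.36 to 5.77 CPM, with 3 of 8 above and a log2 fold change of 0.91 ± 0.22. In the VTA the C24 libraries ran from 3.25 over 4.37 to 9.41 CPM and the S24 libraries from 2.18 over 2.99 to 4.17 CPM, with 4 of 6 above and a log2 fold change of 0.82 ± 0.21. In the BLA they ran from 1.40 over 3.0 to 6.83 CPM in C24 and from 1.30 over 1.92 to 3.56 CPM in S24, with 2 of 6 above and a log2 fold change of 0.80 ± 0.25. Mouse C24_223 ranked 1 or 2 in its group in all 6 of its libraries, and mice C24_194 and C24_203 ranked from 1 to 3 in each of their 5 libraries. Mouse C24_195 was the lowest C24 mouse in 4 of its 5 libraries and next to lowest in the CPu.

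Libraries of 1 mouse went together. After group means were removed, the correlation between them was 0.631 for Tnfsf10 and 0.460 without C24, against a median of 0.0352 and a consensus of 0.0398 over all genes. Gbp4, an interferon-induced guanylate-binding protein, had 0.912 and 0.782 without C24.

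No change of Tnfsf10 passed a test at 30 d of withdrawal. The mouse values averaged 2.76 ± 0.48 CPM in CC (SD, n = 7), 2.90 ± 0.68 CPM in CS (n = 6), 2.58 ± 0.43 CPM in SC (n = 8) and 2.45 ± 0.45 CPM in SS (n = 8), and the groups overlapped almost wholly. The comparisons with SS share its 8 mice. With limma on 1 value per mouse, CS against SS gave a log2 fold change of 0.23 (95% interval -0.22 to 0.69, adjusted p = 0.958), SC against SS 0.08 (-0.34 to 0.50, adjusted p = 1.00), and CC against SS 0.18 (-0.26 to 0.61, adjusted p = 0.875). CC against CS gave -0.06 (-0.53 to 0.41, adjusted p = 1.00), and the interaction, the effect of the injection after cocaine minus that after saline, -0.14 (-0.76 to 0.49, adjusted p = 1.00). Over all genes, 23 of 18927 (0.122%) passed for SC against SS, 1 (0.00528%) for the interaction, and 0% for CS against SS (814 at an unadjusted p under 0.05, and 11, or 0.0581%, called with voom and the mouse as block), CC against SS (1503, and 6 or 0.0317% with the block) and CC against CS (436, and 0 with the block). With the block 0.111% of genes were called for SC against SS and 0.0423% for the interaction.

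In single regions none of these comparisons passed either (edgeR, lowest adjusted p = 0.805, in the interaction of the vHipp). Of all genes, SC against SS called 0.00587% in the BLA, 0.0118% in the NAc and 0.00585% in the VTA, the interaction 0.00602% in the CPu, and the other comparisons of 30 d groups 0% in each region. Before adjustment 202 to 2519 genes had a p under 0.05 there, and DESeq2 called at most 4. CS was above SS in 5 of 6 regions, with log2 fold changes from -0.22 in the vHipp to 0.48 in the PFC, and mouse CS_091 was the highest of its group in the CPu, NAc, PFC and VTA. Without this mouse the value was 0.20 in the PFC, 0.23 in the NAc (0.40 with it), 0.12 in the VTA (0.38 with it) and 0.13 over the regions (0.23 with it). In the VTA, CC libraries had 3.03, 3.59, 3.79, 3.81 and 4.18 CPM, CS libraries 3.26, 3.70 and 5.57 CPM, SC libraries 2.92, 2.95, 3.65, 3.74 and 4.22 CPM, and SS libraries ran from 2.38 over 3.11 to 4.26 CPM. The ranges of all 4 groups overlapped there. CC against SS was positive in 5 regions, from -0.08 to 0.38, and SC against SS in 4, from -0.25 to 0.38.

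**Figure D3:**
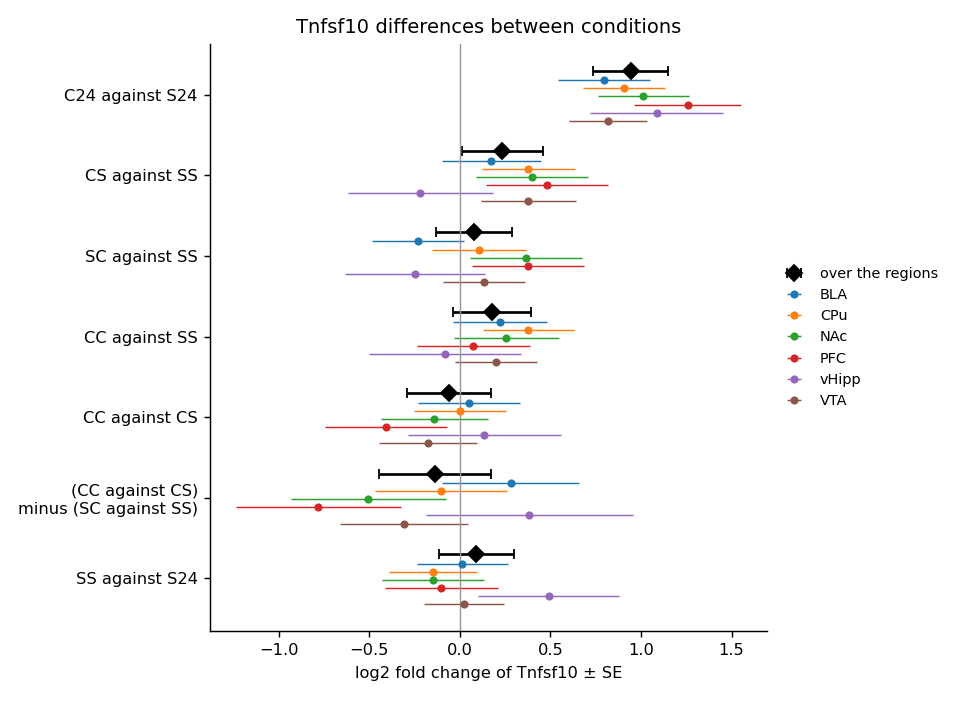
Log2 fold change of Tnfsf10 (x axis) in each comparison, over the regions (diamonds, limma on 1 value per mouse) and in single regions (circles, edgeR), with whiskers of 1 SE. C24 against S24, the comparison that chose the gene, lies between 0.80 and 1.26 in all 6 regions, while the others lie between -0.78 and 0.49.

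No difference of Tnfsf10 between saline mice at 30 d and at 24 h passed the test. SS, at 30 d and after a saline injection, against S24, which is also a side of the comparison that chose the gene, gave a log2 fold change of 0.09 (95% interval -0.33 to 0.51, adjusted p = 0.776, limma on 1 value per mouse), beside 31% of all genes that passed in this comparison (31.6% with voom and the mouse as block). In single regions it ran from -0.15 in the CPu to 0.49 in the vHipp (edgeR, lowest adjusted p = 0.511), where 16.7% of all genes passed in the BLA, 16.9% in the CPu, 3.79% in the NAc, 14.3% in the PFC, 2.72% in the vHipp and 2.51% in the VTA. Time, injection and any processing that differed between the 2 sets of mice cannot be told apart. Without mouse S24_204, the lowest of all 45, it was -0.01.

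Receptor genes and signalling partners of the ligand changed in both directions in that comparison, in which 31% of all genes passed. Of 4 receptor genes tested 3 passed (limma on 1 value per mouse): Tnfrsf10b rose by 0.29 ± 0.11 (adjusted p = 0.0438) and Tnfrsf23 by 0.28 ± 0.10 (adjusted p = 0.0242), and Tnfrsf22 fell by 0.38 ± 0.09 on the log2 scale (adjusted p = 0.00107). Tnfrsf10b had 0.863 ± 0.094 CPM in SS and 0.706 ± 0.094 CPM in S24, and Tnfrsf22 1.43 ± 0.10 CPM in SS and 1.86 ± 0.21 CPM in S24 (SD, n = 8 each). Of the 8 genes of the receptor complex 4 rose and 1 fell. Cflar, the caspase-8 inhibitor FLIP, rose by 0.22 ± 0.06 (adjusted p = 0.00671), Birc2, an inhibitor of apoptosis, by 0.15 ± 0.04 (adjusted p = 0.00129), and Tradd and Traf2 rose by 0.16 and 0.10. The adaptor Fadd fell by 0.20 ± 0.08 (adjusted p = 0.0482). Casp8 itself gave 0.02 ± 0.10 (adjusted p = 0.927).

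Downstream, 2 of 14 genes of the mitochondrial and effector arm rose and 5 fell in SS against S24. Bcl2, which blocks apoptosis at mitochondria, rose by 0.46 ± 0.05 (adjusted p = 2.51e-09) and Mcl1, with the same function, by 0.12 ± 0.04 (adjusted p = 0.0199). Among those that fell were Bid, which links caspase-8 to mitochondria, by 0.33 ± 0.06 (adjusted p = 8.35e-05), Casp9, the initiator caspase of the mitochondrial route, by 0.21 ± 0.03 (adjusted p = 1.13e-06), and Bak1, which permeabilises mitochondria, by 0.11 ± 0.03 (adjusted p = 0.00834). The medians were 0.14 over the receptors, 0.09 over the complex and -0.00 over this arm, against -0.01 over all genes, and of 10 other TNF ligands tested Tnfsf9 passed, at 0.65 ± 0.19 (adjusted p = 0.00637). With voom and the mouse as block 3 of these ligands passed, Lta, Tnfsf9 and Tnfsf13, 2 of them upward. In the comparisons of the 30 d groups no member of the 4 lists passed the same test, nor with voom and the mouse as block.

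In C24 against S24, read here as values only, the receptors and signalling partners of the ligand had smaller differences than it. Median log2 fold changes were 0.09 over 4 receptor genes, 0.08 over 8 genes of the complex, -0.01 over the 14 of the effector arm and 0.04 over 10 other ligands, against -0.01 over all genes. Casp8 had 2.77 ± 0.49 CPM in C24 mice, against 2.33 ± 0.47 CPM in S24 mice, and Tnfrsf10b had 0.793 ± 0.053 CPM in C24 mice, against 0.706 ± 0.094 CPM in S24 mice (SD, n = 8 each). Tnfsf8, the CD30 ligand of lymphocytes, had a larger log2 fold change than Tnfsf10, 1.64 ± 0.54, at 0.782 ± 0.657 CPM in C24 and 0.238 ± 0.162 CPM in S24. The guanylate-binding and immunity-related GTPases had a median of 0.99 over 14 genes, all of them above 0, class I antigen presentation 0.38 over 12 and the antiviral genes 0.25 over 24. In this comparison limma on 1 value per mouse called 0% of 18927 genes (1326 at an unadjusted p under 0.05) and voom with the mouse as block called 0.851%; in single regions edgeR called 0.00585% in the VTA and 0% in the other 5, where up to 1388 genes had a p under 0.05 before adjustment and DESeq2 called at most 7. These shares describe all genes, and no call of a list member is given, because this comparison chose the gene. Among cell-type markers, medians were 0.15 over 12 endothelial and pericyte genes and 0.13 over 12 microglia genes, with all 12 of each above 0. They were 0.42 over 8 blood-cell genes and 0.12 over 8 oligodendrocyte genes, also all above 0. Leptomeningeal fibroblasts had 0.10 over 10 genes (9 above 0), and astrocytes 0.05 over 8 (5 above 0). T and natural killer cells had 0.14 over 2 genes (1 above 0). Medians were below 0 for neurons, at -0.06 over 8 genes (0 above 0), and for choroid plexus and ependyma, at -0.16 over 12 (1 above 0). The part of these cells in the interferon lists was not tested. Voom used the consensus correlation of 0.0398 between libraries of a mouse for every gene, far below the 0.912 of Gbp4. At 30 d the GTPases had medians of 0.36 in CS against SS, 0.17 in SC against SS and 0.18 in CC against SS, with all 14 above 0 in each of these comparisons, which share the SS mice, and none passed.

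Outside C24, the mice with more Tnfsf10 also had more Gbp4, a relation that was picked with earlier results of these data known. Over the 37 mice of the other 5 groups, with group means removed, Pearson's r was 0.737 and Spearman's coefficient 0.645, with 2-sided permutation p-values of 2e-05, the smallest that 100000 resamples can give, and 6e-05 (adjusted over 14 relations 9.33e-05 and 0.00028). The relation leaned on mouse CS_091 (8.38 CPM of Gbp4) and mouse S24_191 (6.74 CPM), but without both r was 0.612 and Spearman's coefficient 0.580 (permutation p = 0.0002 for r). Among the 29 mice at 30 d r was 0.559 and Spearman's coefficient 0.474 (permutation p = 0.00166 for r). In single regions r ran from 0.555 in the BLA (32 libraries) to 0.764 in the PFC (33 libraries), with permutation p-values from 2e-05 to 0.00088. No technical batch is given in the labels. Without the 21 libraries with 1 CPM or more of the predicted gene Gm20594, a split read from the counts and not from a label, r was 0.718 over 33 mice.

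Within groups the relation was uneven. In exact permutation tests over pairings, r was 0.936 in S24 (8 mice, p = 0.00134, adjusted over 5 groups 0.00335) and 0.875 in SC (8 mice, p = 0.00109, adjusted 0.00335). It was 0.708 in SS (8 mice, exact p = 0.0565) and 0.686 in CS (6 mice, exact p = 0.281), and 0.010 in CC (7 mice, exact p = 0.935). Spearman's coefficient was 0.881 in S24, 0.976 in SC, 0.714 in SS, 0.314 in CS and 0.036 in CC. Without the 2 mice farthest in Gbp4, r was 0.891 in S24, 0.892 in SC and 0.859 in SS, but -0.890 in CS and -0.562 in CC, and in CS the positive value rested on mouse CS_091. Whether the groups differ in r was not tested.

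In C24 the mice lay in 2 clusters, and no r is given. The 3 mice high in Tnfsf10 had 15.5, 24.5 and 27.4 CPM of Gbp4 (mice C24_203, C24_194 and C24_223), and the other 5 had 1.57 to 5.01 CPM. The 37 mice of the other groups had 0.967 to 8.38 CPM of Gbp4. Mouse C24_195, the lowest C24 mouse in Tnfsf10, was also the lowest in Gbp4.

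**Figure D4:**
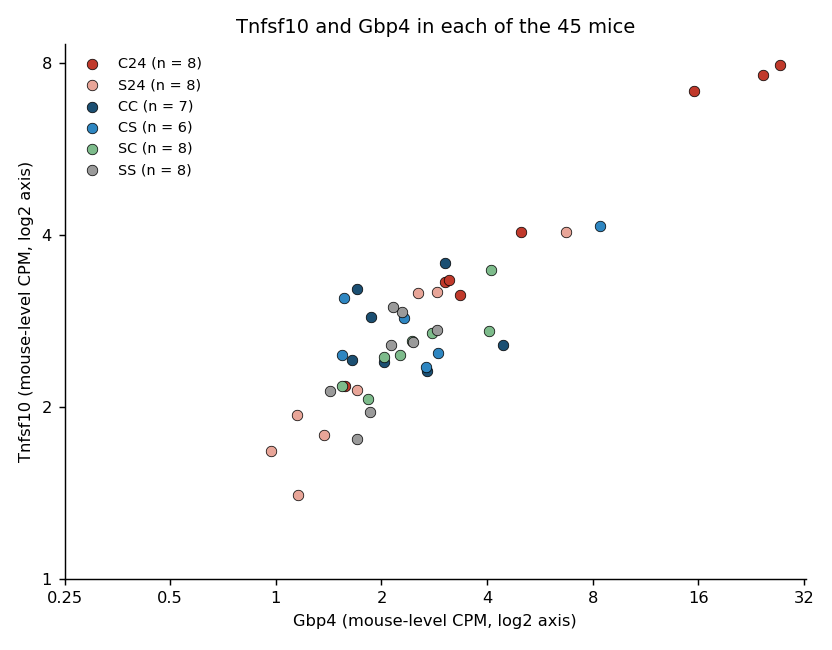
Tnfsf10 (y axis) against Gbp4 (x axis) in each of the 45 mice, both in CPM adjusted for region and on log2 axes; each point is a mouse, coloured by group. The 3 C24 mice at 7.14 to 7.91 CPM of Tnfsf10 have 15.5 to 27.4 CPM of Gbp4 and stand apart from all others. Among the others Tnfsf10 tends to rise with Gbp4, but not within CC (r 0.010), and within CS Spearman's coefficient is 0.314.

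The genes most like Tnfsf10 across the 37 mice were interferon-induced genes and genes of vessel walls. Over 14693 genes with a mean of 1 CPM or more, r had a 5th percentile of -0.323 and a 95th percentile of 0.304. The highest were Gbp9 (0.812), Gbp4 (0.737), the non-classical class I gene H2-Q4 (0.730), Cd93, a surface protein of endothelium (0.729), and Itga6, an integrin chain that binds laminin (0.726). Next came Oasl2, an antiviral gene (0.694), Mmrn2, a matrix protein of endothelium (0.689), Sp100, a nuclear body protein (0.685), Gbp3 (0.684) and Gm43302 (0.670). These correlations describe mice that share libraries for both genes, and they carry no test. The gene models of Gbp9 and Gbp4 overlap on the same strand of chromosome 5, and H2-Q4 belongs to a multigene family, so reads of these genes could have been split or lost.

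The least like were Arrdc2, an arrestin-domain gene (-0.722), Cdk11b, a kinase linked to RNA processing (-0.701), Rrp8, a ribosomal RNA methyltransferase (-0.640), Tsc22d3, the glucocorticoid-induced leucine zipper (-0.609), and Bcl2l1, which encodes the apoptosis inhibitor Bcl-xL (-0.603). Over the 29 mice at 30 d the order was partly kept, with r of 0.629 for Gbp9 (rank 5), 0.578 for H2-Q4 (rank 16) and 0.541 for Cd93 (rank 47), but 0.360 for Gbp3 (rank 804) and 0.428 for Itga6 (rank 358). Among the C24 mice, 6 of the 10 most like genes and 0 of the 5 least like had the same 3 highest mice as Tnfsf10, beside 1.59% of all genes. The C24 mice carried the difference that chose the gene, so these counts are a description and no support for the likeness.

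**Figure D5:**
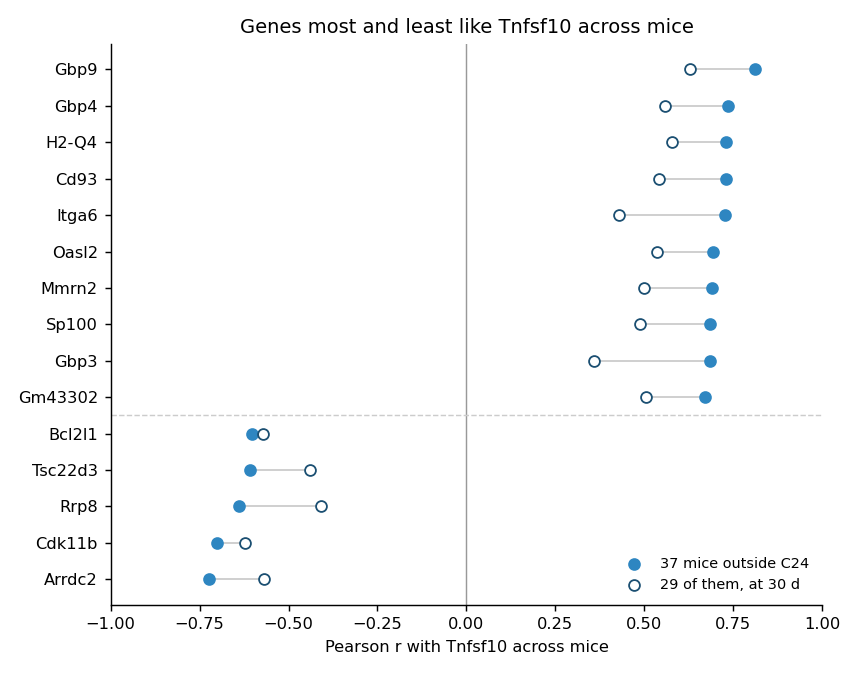
Pearson's r with Tnfsf10 across mice (x axis, group means removed) for the 10 genes most like it and the 5 least like it; filled points are the 37 mice outside C24 and open points the 29 of them killed at 30 d. All 10 stay positive and all 5 negative at 30 d, with smaller values, from 0.360 to 0.629 and from -0.410 to -0.623.

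By list, the guanylate-binding and immunity-related GTPases were nearest, with a median r of 0.620 over 11 genes compared and all 11 above the 95th percentile of genes. The 5 highest were Gbp9, Gbp4, Gbp3, Gbp7 (0.667) and Ifi47 (0.632). Class I antigen presentation had a median of 0.563, with 9 of 12 genes above that percentile and Psmb9 (immunoproteasome, 0.669), H2-K1 (classical class I chain, 0.646), Nlrc5 (its transactivator, 0.615), Tap1 (peptide transporter, 0.611) and H2-D1 (0.607) in front. The antiviral genes had a median of 0.463, with 14 of 20 above, led by Oasl2, Parp14 (0.643), Ddx58 (RIG-I, 0.625), Ifih1 (MDA5, 0.609) and Trim25 (0.607). Among receptors, kinases and transcription factors of interferon signalling the median was 0.170 with 5 of 15 above, and the factors Irf1 (0.613), Irf7 (0.555) and Irf8 (0.407) and the receptor genes Ifnar2 (0.385) and Ifnar1 (0.382) were highest.

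In the same family of 14 relations, the mean level of each interferon list went with Tnfsf10: r was 0.707 for the GTPases, 0.697 for the antiviral genes and 0.664 for class I genes (adjusted permutation p from 9.33e-05 to 0.00014), and 0.557 for the signalling genes (adjusted permutation p = 0.0014). Without the 2 mice farthest on each list r was 0.565, 0.617, 0.605 and 0.494, and at 30 d alone 0.488, 0.467, 0.400 and 0.422. Spearman's coefficient over the 37 mice was 0.622, 0.629, 0.573 and 0.457. The GTPase list includes Gbp4 itself. These lists and the cell-type lists that follow were chosen with earlier results of these data known. Their p-values are therefore not independent of that choice.

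Of the 9 cell-type lists, vessel markers went with Tnfsf10 most closely. For the 12 markers of endothelial cells and pericytes r was 0.606 and Spearman's coefficient 0.562 (adjusted permutation p = 0.000448 and 0.00134), 0.593 without the 2 farthest mice and 0.521 at 30 d, with Tek (0.641), Pecam1 (0.537) and Kdr (0.463) highest and 7 of 12 above the 95th percentile of genes. Microglia markers gave 0.303 and Spearman's coefficient 0.237 (adjusted permutation p = 0.116 and 0.246), and -0.213 at 30 d. Neuronal markers gave -0.294 and Spearman's coefficient -0.393 (adjusted permutation p = 0.116 and 0.0316), and -0.500 at 30 d. Blood cells (0.054), leptomeningeal fibroblasts (0.303), choroid plexus and ependyma (0.119), astrocytes (0.173) and oligodendrocytes (0.115) did not pass, with adjusted permutation p-values from 0.116 to 0.748. Of 12 markers of T and natural killer cells 2 passed the filter on low counts and gave 0.219 (adjusted permutation p = 0.267); Cd3d, Cd3g, Cd8b1, Gzmb and Ncr1 had a median of 0 reads per library.

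Within C24, vessel markers were not high in all 3 mice high in Tnfsf10. The endothelial and pericyte list summed to 623, 495 and 438 CPM in mice C24_203, C24_223 and C24_194, and to 402 to 492 CPM in the other 5; over all mice of a group it ran from 402 over 453 to 623 CPM in C24 and from 365 over 419 to 481 CPM in S24. Microglia markers summed to 522, 530 and 467 CPM in mice C24_203, C24_223 and C24_194, and ran from 419 over 481 to 530 CPM in C24 and from 366 over 448 to 501 CPM in S24. No microglial or endothelial marker had a median of 0 reads. The part of these cells in the Tnfsf10 differences was not tested.

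Of the 8 genes of the receptor complex, Casp8 was the one most like Tnfsf10 over the 37 mice (r = 0.498, rank 126), followed by Birc3, an inhibitor of apoptosis induced by NF-kB (0.432), and Ripk1 (0.394). Tnfrsf22 had 0.338 and Tnfrsf23 -0.036, and Tnfrsf10b and Tnfrsf11b were under the 1 CPM needed for the comparison. Median r was 0.261 over the 8 genes of the complex and -0.003 over the 14 of the effector arm, against -0.031 over all genes. Of the other TNF ligands 2 could be compared, Eda at 0.136 and Tnfsf12 at -0.086.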

How the data were processed

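Tissue punches from 6 brain regions were sequenced after ribosomal RNA depletion and ScriptSeq library preparation, per the labels' protocols, although a label names the molecule as polyA RNA. The authors deposited raw read counts per gene, with HTSeq, limma and mm10 named in the submitters' processing notes; the aligner, the annotation release and the use of strand are not given in the sources used here. Of 43346 identifiers 42462 (98.0%) matched a symbol.

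Genes were filtered with edgeR's filterByExpr (minimum count 10, minimum total 15), which left 18927, and scaled by TMM. For comparisons over the regions, an additive fit of region and mouse to log2 CPM (prior count 0.5) gave 1 value per mouse, tested with limma (moderated, trend, robust). Single regions and differences between regions used edgeR's quasi-likelihood test. Adjusted p-values are Benjamini-Hochberg over all genes tested, with a threshold of 0.05. Correlations used deviations from group means and 100000 resamples, or exact pairings within groups. The edgeR test without the block and limma on 1 value per mouse were checked on simulated counts for recovery of known changes. Voom, the fits with the block and the permutation tests were not checked in this way. Versions were R 4.3.3, edgeR 4.0.16, limma 3.58.1, DESeq2 1.42.0 and scipy 1.17.1.

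Libraries with the same number in the title come from 1 animal, and each mouse belongs to 1 group, so the mouse is a block across regions and not across groups. The number was taken as the animal from the titles. The within-mouse correlation of Tnfsf10 was 0.631, and 0.460 without C24, against a median of 0.0352 over all genes.

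Tnfsf10, the lists and the markers were chosen with earlier results of these data known. Genes named are Tnfsf10, described members of the receptor, signalling, ligand and marker lists, the 5 members of each interferon list with the highest r, and the 10 highest and 5 lowest r over 37 mice among genes with a mean of 1 CPM or more. That rule also asked for r over the 8 C24 mice, which is not given because those mice fall into 2 clusters; whether the 3 highest mice are the same is given in its place. Lta, Tnfsf13, Gbp2 and Gm20594 were named after their values were seen. Alternatives were DESeq2 and its size factors, no filter, another prior count, voom with and without the mouse block, each mouse left out, and the libraries with Gm20594 left out. Leaving out 2 libraries with Slc6a3 outside the VTA was chosen after seeing the data. Some members of the lists are not reported here by name.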

Additional observations from a re-analysis of the deposited data

Results flagged for a closer look

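In 5 of 41 groups of 4 to 10 values, the highest or lowest value stood farther from the rest than Dixon's 95% criterion allows; chance flags about 1 in 20 groups. In the vHipp, mouse CC_053 had 6.13 CPM of Tnfsf10 and the next library 2.93 CPM. Mouse S24_191 had 5.07 CPM in the vHipp, next to 2.56 CPM, and this is the library with midbrain transcripts. Mouse CS_091 had 5.51 CPM in the CPu, next to 3.63 CPM, and was also the mouse highest in Gbp4 outside C24. Mouse CS_072 had the lowest BLA library of its group, at 1.94 CPM, next to 2.59 CPM. Over the regions, mouse SC_144 had 3.46 CPM, next to 2.71 CPM.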

How the results depend on the processing

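No comparison of Tnfsf10 among the 30 d groups, and not SS against S24, passed under any alternative run. Leaving out each mouse in turn gave log2 fold changes over the regions of 0.82 to 1.09 for C24 against S24, 0.13 to 0.29 for CS against SS, 0.013 to 0.12 for SC against SS, 0.11 to 0.22 for CC against SS, -0.125 to 0.0513 for CC against CS, -0.20 to -0.027 for the interaction and -0.0085 to 0.21 for SS against S24. The sign turned without mouse CS_091 in CC against CS and without mouse S24_204 in SS against S24. In single regions the sign turned for CC against CS in the BLA (-0.0396 to 0.0853), NAc (-0.234 to 0.0199), VTA (-0.328 to 0.0857) and vHipp (-0.310 to 0.299), and in the vHipp for CC against SS (-0.540 to 0.0691) and the interaction (-0.0557 to 0.554). The mice whose omission turned it were CS_072 in the BLA, CS_091 in the NAc and VTA, and in the vHipp CC_053 for CC against CS and the interaction and CC_085 or CC_115 for CC against SS; the cause was not tested.

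With voom and the mouse as replicate block the values were 0.94 for C24 against S24, 0.25 for CS against SS, 0.08 for SC against SS, 0.16 for CC against SS, -0.09 for CC against CS, -0.17 for the interaction and 0.10 for SS against S24, and the block changed no call of Tnfsf10 there. Genes called by limma on 1 value per mouse, and by voom without the block, were 0 and 224 for C24 against S24, 0 and 13 for CS against SS, 23 and 41 for SC against SS, 0 and 8 for CC against SS, 1 and 11 for the interaction, and 5872 and 6694 for SS against S24. Between regions, the mouse block gave -0.18 for CPu against VTA, 0.23 for CPu against vHipp, -0.18 for PFC against vHipp, -0.24 for BLA against vHipp and -0.21 for NAc against vHipp, all of which then passed, and turned the sign for vHipp against the other regions (-0.0010) and BLA against NAc (-0.0226). Without C24, PFC against vHipp passed (-0.29) and BLA against PFC turned to 0.0476 and NAc against PFC to 0.0313. Without the 2 libraries with Slc6a3 outside the VTA, chosen after seeing the data, as was running all pairs of regions under each alternative, vHipp against the other regions was -0.00882, and no call of Tnfsf10 changed. The 23 genes called in SC against SS fell to 14 without mouse SC_083, 15 without mouse SC_144 or SS_094, and 0 without the libraries with Gm20594. Tnfsf10 had 17 to 252 reads per library, and the smallest difference detectable at this depth was not tested.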
